A study of Danio rerio with 48 samples.

Results

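The SR proteins (serine and arginine rich splicing factors, genes srsf) and the heterogeneous nuclear ribonucleoproteins (genes hnrnp) were followed as mRNA in zebrafish larvae that lack 1 member of the SMN complex. All genes whose symbol starts with srsf and a digit or with hnrnp and whose mean level reached 1 CPM (counts scaled to the library's total) over 33 RNA-Seq libraries were taken, which gave 41 genes out of 34707 gene identifiers, 17 of them SR genes and 24 hnRNP genes. All 41 symbols passed that minimum, and 40 of them had a mean of 5 CPM or more. A pair of gene identifiers carried the same symbol in 5 cases (srsf1, srsf6, hnrnpab, hnrnpk and hnrnpu), so these 10 genes are given with their Ensembl identifier.

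SR proteins bind exonic enhancer sequences in pre-mRNA and recruit the spliceosome, while many hnRNP proteins bind silencers and oppose exon inclusion. Their balance sets which exons a cell uses. Many of these genes also regulate their own mRNA, through exons or 3' sequences that send the transcript to decay. The SMN complex loads Sm proteins onto the spliceosomal small nuclear RNAs, so it builds the machinery that SR and hnRNP proteins direct. These roles are known mainly from mammalian and fly cells.

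Whole larvae of the TAB-5 background were used at 7 days post fertilization (dpf). Homozygous mutants carried smn1 fh229, gemin2 hg108, gemin3 hg105, gemin4 hg109, gemin5 hg80, gemin6 hg110 or gemin7 hg111, and each group had 3 libraries. Wild-type siblings of the same family, 3 libraries each, served as controls for smn1, gemin3 and gemin5. For gemin2, gemin4, gemin6 and gemin7 there was a single control of 3 wild-type libraries, 1 from each of the gemin4, gemin6 and gemin7 crosses. No sibling of gemin2 mutants was thus sequenced among them, and these 4 comparisons are not independent of each other. Every group, controls included, had been treated at 5 dpf with copper sulfate (10 µM, 2 h), which kills lateral line hair cells, and their caudal fins were clipped for genotyping, so no unexposed larvae stand beside them. Larvae were pooled before RNA extraction and came from a single pair of heterozygous parents per family. Apart from the shared control, the labels do not say whether replicates came from separate crosses, so p-values measure the spread between these pools. In the shared control that spread also holds differences between 3 families, which enters the tests of gemin2, gemin4, gemin6 and gemin7 mutants.

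Libraries held 30045993 to 88871247 expected counts (median 36496510). The 6 gemin3 family libraries, read at 150 nt, were the deepest at 61452820 or more, and the others were read at 125 nt. The mRNA of the mutated gene was below every control library in 4 mutants, at 28.6% ± 2.55 of the control mean in gemin2, 49.7% ± 0.726 in gemin3, 59% ± 13 in gemin5 and 62.8% ± 7.84 in gemin7 (SD, n = 3), and overlapped the controls in smn1 (99.3% ± 6.01), gemin4 (97.4% ± 13.5) and gemin6 (95.3% ± 15.4), whose labels the mRNA level therefore does not check. Wild-type sibling replicate 3 of the gemin3 family stood apart from the other siblings (chi-square per degree of freedom over genes 78.7 and 103, against 19.1 between replicates 1 and 2). Replicate 3 also stood apart from the other replicates, less strongly, in gemin2 mutants (60.1 and 42.2, against 15.5), gemin4 mutants (44.4 and 28.6, against 12.9) and gemin6 mutants (69.9 and 47.2, against 31.6). At lower values it did so in gemin3 mutants (31.4 and 25.7, against 13.3), gemin5 siblings (19.1 and 22, against 9.75) and gemin5 mutants (21.4 and 21, against 9.8). Replicates 1 and 2 were the closest pair in the remaining groups too. These were smn1 siblings (23.2 and 29.2, against 20.8) and smn1 mutants (31.1 and 32.7, against 24.6). The others were gemin7 mutants (24.2 and 37.4, against 21.4) and the shared wild type (32.8 and 45.5, against 30.4). The counts and the main values are also given without replicate 3 of the gemin3 siblings and of the gemin2, gemin4 and gemin6 mutants. Markers of 10 tissues, from proliferating cells to muscle and hair cells, were all detected. In such bulk samples, fewer cells of a type and less RNA per cell cannot be told apart.

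Levels are compared between genes in TPM, the abundance of a gene's transcripts scaled to a fixed library total and corrected for their length. The genes spanned a 51.8-fold range of mean TPM. The highest was srsf5a (295 TPM, 234.2 to 366.6 over the 33 libraries), followed closely by srsf11 (290.5 TPM, 169.45 to 414.16) and hnrnpdl (286.6 TPM, 206.25 to 391.43). The ranges of these 3 genes overlapped. SRSF5 is an enhancer-binding SR protein that responds to growth and glucose signals in mammals, and hnRNP D-like binds AU-rich RNA. hnrnpa0l (215.5 TPM) and hnrnpab (ENSDARG00000007960, 169.9 TPM) came next. The lowest were srsf3a (5.70 TPM, 1.1 to 14.35), hnrnph1 (7.92 TPM, 5.46 to 11.2) and srsf2b (8.21 TPM, 5.15 to 12.26). The ranges of these 3 genes overlapped too. Low genes had well expressed relatives, since srsf2a, the paralog of srsf2b, had a mean of 163.7 TPM. The SR genes had a median of 79.0 TPM and the hnRNP genes one of 46.5 TPM.

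**Figure D1:**
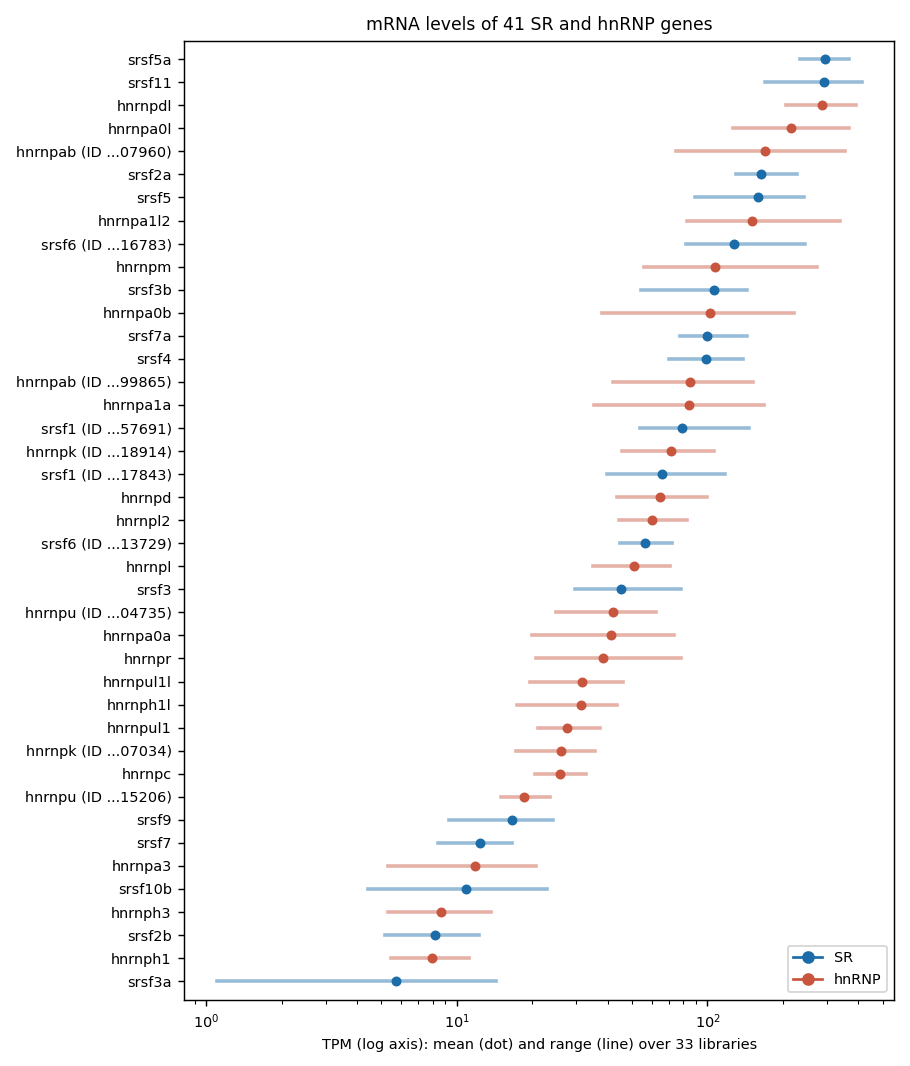
Mean TPM (dot) and range over 33 libraries (line) of the 41 genes, on a log axis, with SR genes in blue and hnRNP genes in red. Means run from 5.70 TPM (srsf3a) to 295 TPM (srsf5a), and both families are spread over the whole range.

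Levels of some of these genes differed between control groups, of which the shared wild type mixes 3 families. Of the 41 genes, 15 differed by 2-fold or more in TPM between the highest and lowest of the 4 control groups, and 13 by less than 1.5-fold. No share of all genes is given here for such counts, so they are not read as a result about SR and hnRNP genes. hnrnpab (ENSDARG00000007960) had 319 ± 51.1 TPM in gemin5 siblings and 292 ± 30.6 in smn1 siblings (SD, n = 3), but 95.7 ± 9.94 in the shared wild type and 86.7 ± 6.46 in gemin3 siblings. In CPM, which is not corrected for length, gemin3 siblings (155.9, 167.6 and 140.1) were above the shared wild type (89.8, 100.7 and 103.5) in this gene. Its estimated mean transcript length was 2224 nt in gemin3 siblings and 1523 nt in the shared wild type. The single-transcript gene srsf10b followed the same TPM order, with 19.5 ± 2.58 and 18.8 ± 1.91 TPM against 6.36 ± 1.08 and 5.15 ± 0.301. SRSF10 is an SR protein that represses splicing when it loses its phosphates, in mammals. Others stood out in the gemin3 family alone. hnrnpa1l2, a relative of the exon-silencing protein hnRNP A1, had 315 ± 19.1 TPM in gemin3 siblings and 120 ± 14.3 in the shared wild type, and hnrnpm 220 ± 46 against 81.5 ± 10.3. Sibling replicate 3 held the highest of the 3 gemin3 sibling values in both, with 310.1, 299.6 and 336.6 TPM for hnrnpa1l2 and 186.8, 200.8 and 272.5 TPM for hnrnpm. Without it 15 genes still differed by 2-fold or more between control groups and 12 by less than 1.5-fold, a setting chosen after seeing the data. Summed over its 24 genes, the hnRNP family reached 2296 ± 196 TPM in gemin5 siblings, 2202 ± 53.5 in smn1 siblings, 1919 ± 146 in gemin3 siblings and 1431 ± 112 in the shared wild type, whereas the 17 SR genes together lay between 1645 and 1830 TPM in all 4. In CPM the hnRNP sums of these groups, in the same order, were 2440 ± 160.3, 2247 ± 30.78, 2479 ± 174.5 and 1702 ± 67.55. The SR sums were 1521 ± 38.4, 1513 ± 35.35, 1991 ± 301.1 and 1661 ± 109.3 CPM, so the order of the groups depended on the unit. Families differ in parents and at least in part in sequencing, and the contributions of these cannot be told apart. No test was made between control groups.

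Between mutants and controls, the mRNA of SR and hnRNP genes differed little. A gene was called when the quasi-likelihood F test of edgeR gave p below 0.05 after adjustment (Benjamini-Hochberg) over all genes, and log2 fold changes are mutant over control. Of the 41 genes, 0 were called in smn1 mutants (0.0921% of all genes tested were), 0 in gemin3 mutants (0.978%), 0 in gemin5 mutants (0.907%), 2 in gemin2 mutants (5.39%), 0 in gemin4 mutants (0.0173%), 0 in gemin6 mutants (0.0%) and 0 in gemin7 mutants (0.0%). These shares are near or below the background. At an unadjusted p below 0.05 the edgeR test gave 2, 5, 3, 8, 0, 2 and 2 genes in the same order, where 5.93%, 11.4%, 11.6%, 20.8%, 5.68%, 3.69% and 8.23% of all genes passed. DESeq2 called 1 of the 41 genes in gemin5 mutants (2.44%, against 2.52% of all genes it tested) and 4 in gemin2 mutants (9.76% against 8.23%). It called 0 in the other 5 mutants, where 0.0764% to 2.92% of all genes were called, and gave an adjusted p to 39 of the 41 genes in gemin7 mutants. The median standard error (SE) of a gene's log2 fold change was between 0.09 and 0.12, and in every comparison at least 38 of the 41 fold changes lay within 0.5 on the log2 scale. The gene with the least movement across the 7 comparisons was hnrnph1l (-0.07 to 0.04), whose relatives bind runs of G, and the widest range belonged to srsf3a (0.00 to 1.31), followed by srsf2b (-0.74 to 0.12).

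**Figure D2:**
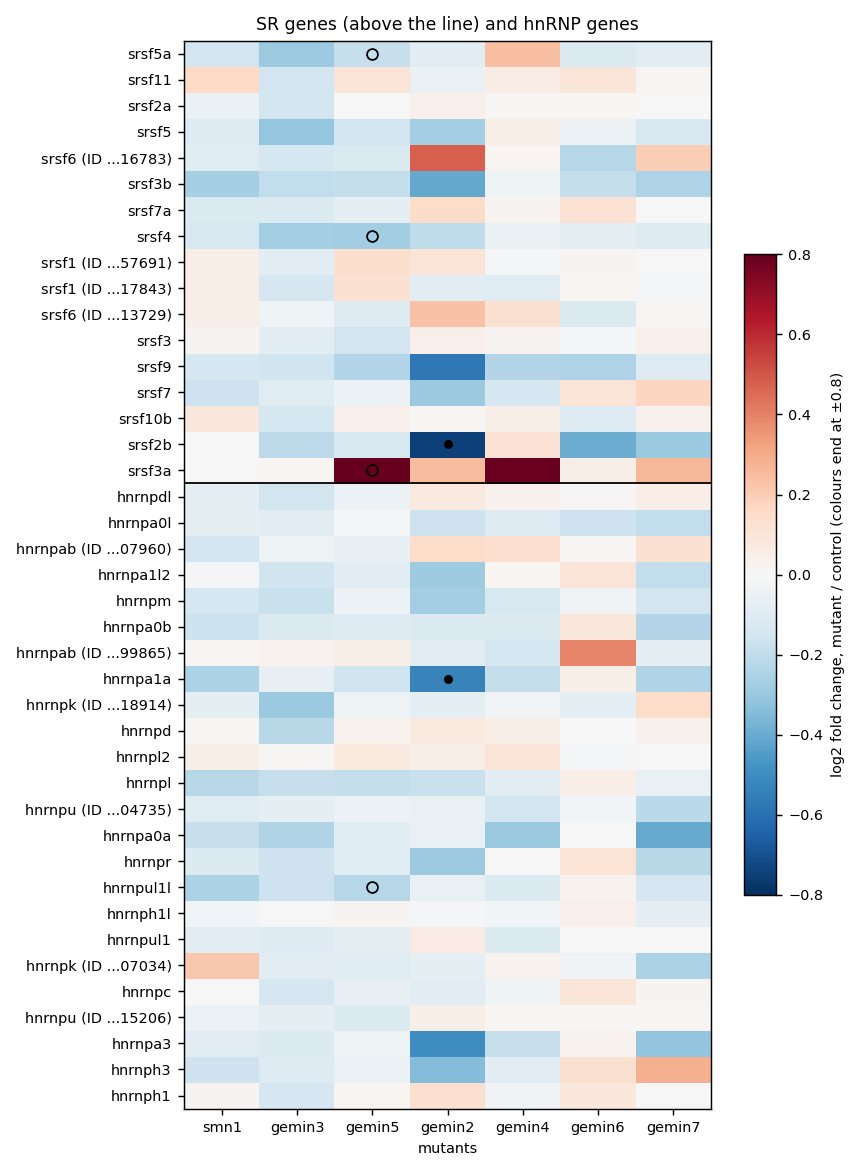
Log2 fold change of each gene (rows, SR genes above the line and hnRNP genes below, each by falling TPM) in the 7 mutants against their controls (columns), blue for lower and red for higher mRNA. Filled dots mark the 2 genes called in gemin2 mutants and open circles the 4 genes called in gemin5 mutants with the replicate number as a block. Most cells are pale, and the gemin3 column is blue for 37 of 41 genes.

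In the 3 comparisons with sibling controls, more of these genes lay below 0 than genes in general. In smn1 mutants 28 of 41 log2 fold changes were negative (47.6% of all genes tested), in gemin3 mutants 37 (51.2%) and in gemin5 mutants 31 (49.6%). The median log2 fold change over the 41 genes was -0.08, -0.14 and -0.07, against 0.01, -0.01 and 0.00 over all genes. A total of 26 genes were negative in all 3 comparisons, which share no library, or 63.4% of them against 25.0% of the 22020 genes tested in all 3. Without sibling replicate 3 of the gemin3 family, the gemin3 count was 27 of 41, with a median of -0.05, and 22 genes were negative in all 3 comparisons (53.7%, against 21.6% of all genes). Negative values also prevailed in related genes, listed further below, so this was not particular to the 41 genes. The exception was the list of 14 genes in smn1 mutants, with 7 negative. Of 64 other hnRNP-like or alternative splicing regulators, 46, 47 and 48 were negative in smn1, gemin3 and gemin5 mutants. Of 29 SR-related proteins and coactivators 19, 24 and 20 were, and of 14 kinase, phosphatase partner and import genes 7, 13 and 10. In gemin2, gemin4, gemin6 and gemin7 mutants 35, 37, 43 and 45 of the 64 regulators were negative. No gene of the 26 was called without the replicate block, and no test was made of the group.

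Every mutant library lay below every control library for 6 of the 41 genes in smn1 mutants (14.6%, against 6.63% of all genes), 7 in gemin3 mutants (17.1% against 8.67%) and 4 in gemin5 mutants (9.76% against 8.98%). The opposite, all mutant libraries above all controls, held for 0 genes in smn1 (5.4% of all genes), 0 in gemin3 (10.4%) and 1 in gemin5 (9.27%). No test was made of these shares. Without sibling replicate 3 the gemin3 counts were again 7 and 0, but the share of all genes was 15.9% below and 18.5% above. Marker sums of other tissues moved in the same mutants. The summed CPM of 10 neuronal marker genes was 1478 to 1592 in smn1 mutants and 1617 to 1756 in their siblings, and that of 8 skeletal muscle genes was 48090 to 56960 against 40960 to 43360. The sum of 12 hair cell genes was 231.9 to 263.6 in smn1 mutants against 299.3 to 315.2 CPM, and that of 6 erythrocyte genes 158.4 to 225.9 against 240.7 to 333.9. Only 7 of the 12 hair cell genes had a negative log2 fold change, so the lower sum does not stand for all of them. In gemin5 mutants the muscle sum was 49040 to 52740 against 40740 to 47740, and the sum of 7 exocrine pancreas genes was 8824 to 9814 against 12120 to 14100. The gemin5 sums of 8 lens genes (1635 to 2565 against 3344 to 3401) and of the hair cell genes (201.9 to 222.3 against 237.9 to 278.0) were lower too. Of these genes 7 of the 8 and 8 of the 12 were negative. In gemin3 mutants the pancreas sum was 12390 to 12920 against 14560 to 18550. The sums of the other lists overlapped between mutants and siblings in these 3 comparisons. No gene of these lists was at 0 throughout, and their part in the values of the SR and hnRNP genes was not tested.

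In smn1 mutants the largest decrease in value was that of srsf3b, one of 3 genes for SRSF3, a small SR protein that also acts in mRNA export. Its libraries had 52.2, 50.0 and 61.7 CPM in mutants and 63.5, 65.8 and 67.3 CPM in siblings. The groups did not overlap, and the log2 fold change was -0.26 (SE 0.10, edgeR adjusted p = 0.811). Libraries of the same replicate number deviated together in this family (correlations 0.441 to 0.651). With the replicate number as a block, srsf3b had -0.27 (SE 0.07, edgeR adjusted p = 0.107), still not called. Lower adjusted p with the block were those of hnrnpa1a (-0.25, SE 0.06, edgeR adjusted p = 0.0784) and hnrnpul1l (-0.26, SE 0.06, edgeR adjusted p = 0.0908). These genes were not called either. The largest increase in value was hnrnpk (ENSDARG00000007034), the gene of a poly-C binding protein, at 38.4, 33.8 and 32.2 CPM against 30.7, 34.3 and 24.9 CPM, and these groups overlapped. In gemin3 mutants the largest decrease in value was srsf5, with 176, 179 and 204 CPM in mutants and 206, 211 and 270 CPM in siblings. Its highest library was sibling replicate 3, and the log2 fold change was -0.31 (SE 0.13, edgeR adjusted p = 0.415), or -0.17 without that library. With the block and all libraries it was -0.30 (SE 0.07, edgeR adjusted p = 0.0986). The largest positive value in gemin3 mutants was only 0.03, for hnrnpab (ENSDARG00000099865).

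In the gemin5 family, mutant and sibling libraries of replicate 3 deviated together (correlation 0.638). Replicates 1 and 2 were hardly told apart, with 0.337 and 0.334 for the same number and 0.278 and 0.261 for crossed numbers. With the replicate number as a block 4 of the 41 genes were called, where 7.52% of all genes were, a share close to that background. SRSF3 is known to regulate its own splicing and that of other SR genes, which was not tested here. Its paralog srsf3a rose. It had 4.82, 3.38 and 4.03 CPM in mutants and 1.94, 1.94 and 1.03 CPM in siblings. Every mutant library was above every sibling library, and the log2 fold change with the block was 1.32 (SE 0.21, edgeR adjusted p = 0.00554). Without the block it was 1.31 (SE 0.26, edgeR adjusted p = 0.0828). The RSEM posterior standard deviation of the srsf3a count had a median of 17.1% of the count, the largest of the 41 genes, so its reads were partly shared with similar transcripts, and its level is uncertain. In the other 2 regeneration mutants its groups overlapped, at 3.36 ± 0.889 CPM in smn1 mutants and 6.20 ± 1.22 CPM in gemin3 mutants (SD, n = 3), with log2 fold changes of 0.00 and 0.02. The difference from gemin5 mutants was not tested. Between the 4 control groups srsf3a differed 4.69-fold in mean TPM, the most of the 41 genes. Wild-type smn1 siblings, at 3.19, 2.92 and 3.99 CPM, overlapped the gemin5 mutants. Wild-type gemin3 siblings, at 6.45, 4.86 and 6.98 CPM, lay above them. The gemin5 mutant level was thus within the spread of wild-type larvae of other families.

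The other 3 genes called with the block fell, to 82.4%, 85.3% and 87.9% of the sibling level. srsf4, which encodes a large SR protein with a long arginine-serine tail, had 88.6, 87.9 and 79.4 CPM in mutants and 106.7, 106.3 and 97.8 CPM in siblings. The groups did not overlap (log2 fold change with the block -0.28, SE 0.05, edgeR adjusted p = 0.0115). hnrnpul1l, a relative of the hnRNP U-like genes, had 154.5, 155.4 and 151.8 CPM against 180.5, 185.4 and 176.1 CPM, again with no overlap (-0.23, SE 0.05, edgeR adjusted p = 0.0248). The most abundant gene, srsf5a, had 309.8, 302.7 and 259.3 CPM against 347.0, 342.2 and 302.7 CPM. These groups met at 302.7 CPM, and each mutant was below the sibling of its number (-0.19, SE 0.05, edgeR adjusted p = 0.0485). Without the block the adjusted p of these 3 genes was 0.187, 0.195 and 0.508. Falls of similar size were not particular to gemin5 mutants. With the block hnrnpul1l had -0.26 in smn1 mutants (SE 0.06, edgeR adjusted p = 0.0908). In gemin3 mutants srsf4 had -0.27 (SE 0.07, edgeR adjusted p = 0.123) and srsf5a -0.28 (SE 0.08, edgeR adjusted p = 0.163). Without the block srsf4 was below 0 in all 7 comparisons, and hnrnpul1l and srsf5a in 6 each. The block called 0 genes of the 41 in smn1 and gemin3 mutants, for which no share of all genes is given here.

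**Figure D3:**
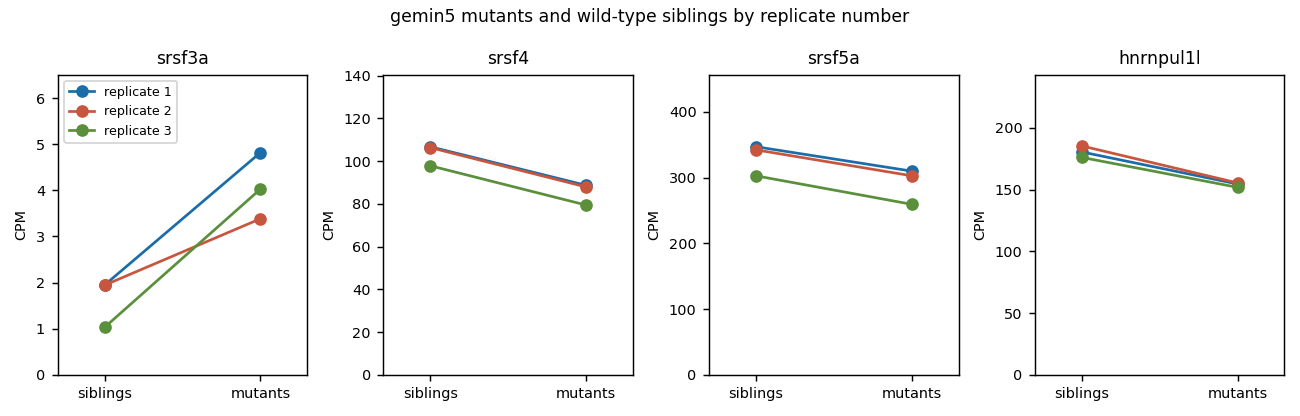
CPM of the 4 genes called in gemin5 mutants with the replicate block, in wild-type siblings and mutants, with lines joining libraries of the same replicate number (colour). srsf3a rises in all 3 pairs, from 1.94, 1.94 and 1.03 CPM to 4.82, 3.38 and 4.03 CPM, while srsf4, srsf5a and hnrnpul1l fall in all 3.

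In gemin2 mutants 2 of the 41 genes were called, and both fell. srsf2b encodes a paralog of SRSF2 (SC35), which binds exonic enhancers and marks nuclear speckles. Its libraries had 9.07, 9.395 and 7.67 CPM in gemin2 mutants and 15.1, 15.8 and 12.8 CPM in the shared wild type. All mutants lay below all controls, and the log2 fold change was -0.74 (SE 0.14, edgeR adjusted p = 0.0211). Its paralog srsf2a, which had a far higher level, was not called in any comparison. hnrnpa1a encodes hnRNP A1, the best known exon silencer. It had 48.8, 47.6 and 41.7 CPM in mutants and 65.3, 72.8 and 61.4 CPM in the wild type, with no overlap (-0.53, SE 0.11, edgeR adjusted p = 0.0339). Both calls were lost when any of the 3 gemin2 mutant libraries or wild-type replicate 1 or 2 was left out, and the adjusted p of srsf2b was then between 0.0502 and 0.0774. That of hnrnpa1a was between 0.0539 and 0.133, with wild-type replicate 3 left out as well. The log2 fold changes stayed between -0.84 and -0.67 and between -0.59 and -0.47.

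Next in gemin2 mutants came srsf9, whose protein is a close relative of SRSF1, with 10.8, 9.80 and 11.3 CPM against 13.3, 19.1 and 15.1 CPM, and srsf6 (ENSDARG00000016783), with 136.1, 129.3 and 136.0 CPM against 91.8, 82.4 and 112.5 CPM. Neither pair of groups overlapped, and edgeR gave log2 values of -0.57 (SE 0.15, adjusted p = 0.0706) and 0.48 (SE 0.14, adjusted p = 0.095). Without gemin2 mutant replicate 3 they were -0.63 (SE 0.17) and 0.45 (SE 0.15), and without wild-type replicate 3 srsf6 was called by edgeR (0.61, adjusted p = 0.0466). DESeq2 called both genes, together with srsf2b and hnrnpa1a. In gemin2 mutants 9 of the 41 genes (22.0%) had every mutant library below the controls, where 13.2% of all genes did, and 4 (9.76%) had every mutant library above, where 14.3% did. Without mutant replicate 3 these were 13 (31.7%, against 20.2% of all genes) and 8 (19.5% against 21.7%). Of the 41 fold changes 26 were negative (63.4%, against 50.0% of all genes) with a median of -0.08, and 23 without mutant replicate 3, with a median of -0.04. The summed skeletal muscle markers were 50390 to 51990 CPM in gemin2 mutants and 40040 to 48280 in the shared wild type, and those of 11 photoreceptor genes were 1485 to 1775 against 1150 to 1323. Their part in these values was not tested.

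The gemin2 mutants were also compared directly with the gemin4, gemin6 and gemin7 mutants in 1 edgeR fit of all 33 libraries, in which the shared control drops out. This called 7 of the 41 genes, close to the 16.1% of all genes that were called. Of the 24 hnRNP genes 3 were called, all lower in gemin2 mutants, while 11 of the 24 had values above 0 and the median was -0.01. The 3 were hnrnpa1a at -0.41 (SE 0.10, adjusted p = 0.00427), its relative hnrnpa1l2 at -0.26 (SE 0.08, adjusted p = 0.0285) and the G-run binding gene hnrnph3 at -0.46 (SE 0.13, adjusted p = 0.0146). hnrnpa1l2 had 94.9, 84.3 and 88.5 CPM in gemin2 mutants. The gemin4 and gemin6 libraries were all above that at 106.6 to 119.4 CPM, but gemin7 mutants, at 87.6, 88.9 and 108.8 CPM, overlapped it. hnrnph3 had 6.19, 6.24 and 8.12 CPM in gemin2 mutants against 8.59, 7.92 and 8.13 CPM in gemin4 mutants, 7.56, 10.5 and 10.6 CPM in gemin6 mutants and 8.26, 11.2 and 12.6 CPM in gemin7 mutants. Gemin2 replicate 3 thus lay among the gemin4 and gemin6 libraries.

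Among SR genes, the direct comparison split by gene. srsf2b was lower in gemin2 mutants (-0.55, SE 0.10, edgeR adjusted p = 0.000447) and so was srsf9 (-0.38, SE 0.11, edgeR adjusted p = 0.0149). In srsf2b, the gemin4 libraries had 15.1, 14.6 and 17.4 CPM, the gemin6 libraries 12.8, 11.3 and 9.37 CPM and the gemin7 libraries 10.6, 12.5 and 12.6 CPM. The highest gemin2 library (9.395 CPM) and the lowest gemin6 library (9.37 CPM) were nearly level, and all other libraries of these mutants were above the gemin2 range. Both srsf6 genes were higher. srsf6 (ENSDARG00000016783) had 0.48 (SE 0.09, edgeR adjusted p = 0.000216), and all 3 gemin2 libraries were above the 9 others, which had 75.3 to 111.3 CPM. srsf6 (ENSDARG00000013729) had 66.3, 60.7 and 60.1 CPM in gemin2 mutants and 48.1 to 60.5 CPM in the others, and differed by 0.23 (SE 0.07, edgeR adjusted p = 0.0218). SRSF6 is an enhancer-binding SR protein of the same subgroup as SRSF4 and SRSF5. Calls of srsf2b, hnrnpa1a and srsf6 (ENSDARG00000016783) held whichever of the 12 libraries of these 4 mutants was left out. Other libraries were not left out of this contrast. Without gemin2 mutant replicate 2 these 3 genes were the only calls.

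**Figure D4:**
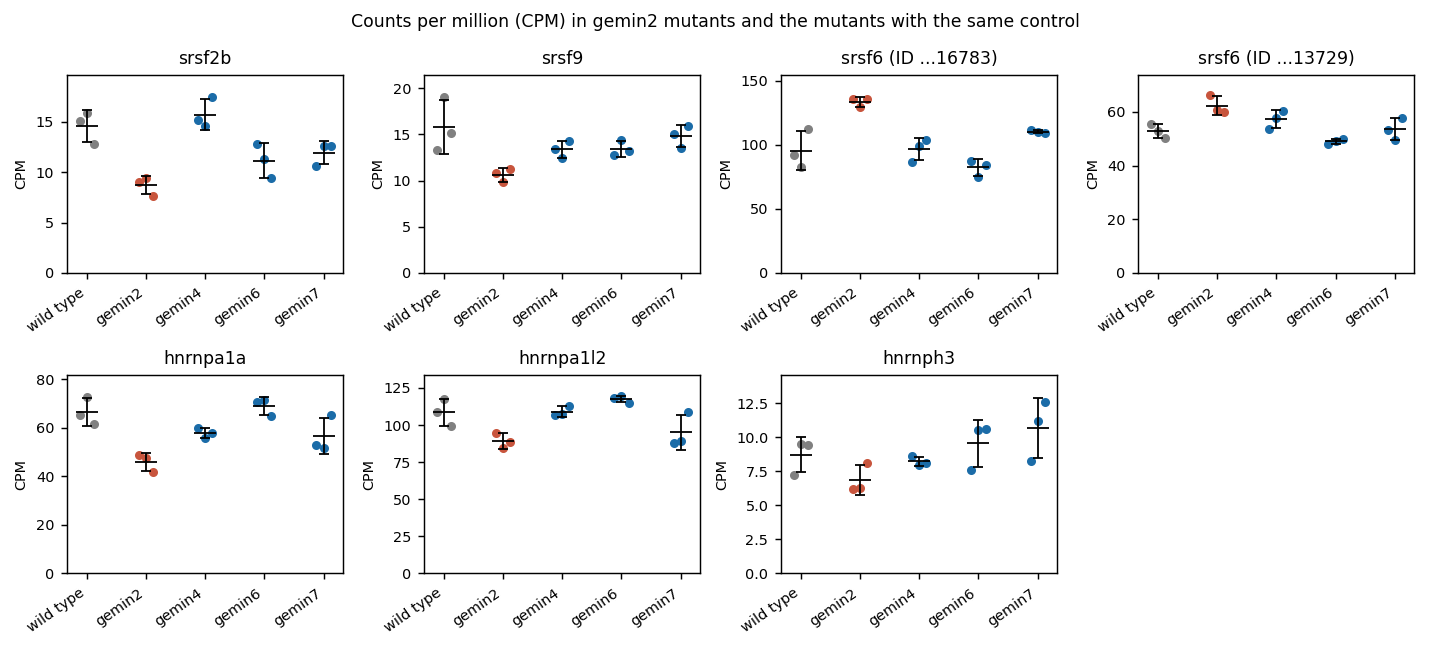
CPM by library (dots) with mean and SD (black) of the 7 genes that differed between gemin2 mutants (red) and the gemin4, gemin6 and gemin7 mutants (blue), with the shared wild type in grey. In srsf6 (ENSDARG00000016783) the gemin2 libraries, at 129.3 to 136.1 CPM, are above all others, and in hnrnpa1a, at 41.7 to 48.8 CPM, below all others.

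In gemin4, gemin6 and gemin7 mutants no gene was called. The largest decrease in value in both gemin4 and gemin7 mutants was that of hnrnpa0a, whose protein binds AU-rich RNA. It had 56.6, 52.6 and 43.6 CPM in gemin4 mutants, 53.7, 35.5 and 54.0 CPM in gemin7 mutants and 69.0, 67.6 and 52.0 CPM in the wild type they share. Both mutants overlapped the control (log2 -0.30, SE 0.14 and -0.40, SE 0.19; edgeR adjusted p = 0.868 and 0.621). In gemin6 mutants srsf2b had the lowest value (-0.39, SE 0.15) and hnrnpab (ENSDARG00000099865) the highest. The latter had 95.0, 84.8 and 84.4 CPM in mutants and 55.3, 82.8 and 61.6 CPM in the wild type, with no overlap (0.39, SE 0.16, edgeR adjusted p = 0.991). Without gemin6 mutant replicate 3, the log2 values were -0.28 for srsf2b and 0.43 for hnrnpab (ENSDARG00000099865). The largest positive value was srsf3a in gemin4 mutants (0.79, SE 0.40) and hnrnph3 in gemin7 mutants (0.28, SE 0.18), both with overlapping groups. Every mutant library was below the controls for 2 genes in gemin4 (5.54% of all genes), 1 in gemin6 (4.06%) and 5 in gemin7 (7.5%), and above them for 0 in gemin4 (5.92%), 1 in gemin6 (4.57%) and 0 in gemin7 (6.31%). Without mutant replicate 3 the counts below and above were 6 and 0 in gemin4 (8.81% and 10.1% of all genes) and 3 and 2 in gemin6 (8.38% and 8.57%). In gemin4 mutants hnrnpa0a was then at -0.21 and 30 of the 41 genes were negative, against 22 with all libraries. With all libraries the medians were -0.02, 0.01 and -0.01, near those of all genes. Against the shared wild type, the summed markers of gemin4 mutants were lower for 14 genes of proliferating cells (136.1 to 147.4 against 149.5 to 231.3 CPM) and higher for photoreceptors (1441 to 2106 against 1150 to 1323) and lens (3532 to 4770 against 2961 to 3413), and in gemin7 mutants they were lower for neurons (1473 to 1666 against 1713 to 1815). Their part was not tested.

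The series was designed to set 3 mutants with impaired regeneration (smn1, gemin3 and gemin5) against 4 without (gemin2, gemin4, gemin6 and gemin7). The mean log2 fold change of the first 3 minus that of the other 4 gave 0 calls among the 41 genes, where 0.538% of all genes were called by edgeR. At an unadjusted p below 0.05 the edgeR test gave 1 gene, where 8.01% of all genes passed. The extremes were srsf6 (ENSDARG00000016783) at -0.24 (SE 0.11, edgeR adjusted p = 0.55) and srsf2b at 0.22 (SE 0.12, edgeR adjusted p = 0.701), which were also the genes with the largest rise and fall in value in gemin2 mutants. Leaving gemin2 mutants out of this contrast also gave 0 calls, for which no share of all genes is given here.

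A change in the mix of transcripts was sought in the mean transcript length of each gene, which RSEM weights by the estimated abundance of each transcript. This can be tested in 34 of the 41 genes with limma. Calls were 0 in smn1 mutants (0.0% of all genes tested), 0 in gemin3 (0.0%), 0 in gemin5 (0.0%), 1 in gemin2 (0.98%), 0 in gemin4 (0.0%), 0 in gemin6 (0.00827%) and 0 in gemin7 mutants (0.0%), with 3, 5, 3, 2, 3, 2 and 3 genes at an unadjusted p below 0.05 in limma, where 4.19%, 6.17%, 4.85%, 11.7%, 5.26%, 5.46% and 5.75% of all genes passed. In gemin3 mutants the 5 genes are 14.7% of the 34. Among them, hnrnpk (ENSDARG00000018914) had 1555.8, 1606.1 and 1535.8 nt in mutants and 1353.5, 1367.1 and 1356.0 nt in siblings. These groups did not overlap, and the log2 difference was 0.20 (SE 0.02, limma adjusted p = 0.142). It was not called, though this difference was larger than that of the gene called in gemin2 mutants. Its unadjusted limma p was also smaller (0.000153, against 0.000218 for that gene). The adjustment depends on all genes tested in a comparison. The gene called was srsf1 (ENSDARG00000057691), which encodes SRSF1 (SF2/ASF), the founding SR protein, whose mRNA is known in mammals to be spliced in its 3' untranslated region as part of its self-regulation. Its mean length was 1743.5, 1779.3 and 1733.1 nt in gemin2 mutants and 1617.9, 1627.2 and 1615.0 nt in the shared wild type. All 3 gemin2 values were above those of every other library, with a log2 difference of 0.11 (SE 0.01, limma adjusted p = 0.0322), while its count gave no call. The call was lost in 5 of the 6 fits that left out 1 library (adjusted p from 0.0823 to 0.116), and held only without gemin2 mutant replicate 2. It was also lost with RSEM's effective length (limma adjusted p = 0.0658). That length varied in all 41 genes, including the 6 with 1 annotated transcript, so it does not measure the mix of transcripts alone. With that length 9 of the 41 genes were called in gemin7 mutants (22.0%, where 51.7% of all genes were) and 0 in the other mutants. The other srsf1 gene (ENSDARG00000017843) had 2239 ± 15.7 nt in gemin2 mutants and 2250 ± 18.1 nt in the wild type. Mean lengths of srsf1 (ENSDARG00000057691) differed between controls too. They were 1407 nt in gemin3, 1598 nt in gemin5 and 1671 nt in smn1 siblings, and 1620 nt in the shared wild type. As no gemin2 sibling was sequenced, family and mutation cannot be told apart here. Gemin7 mutants, at 1655.2, 1649.4 and 1669.7 nt, were above the shared wild type but not called (log2 0.03, limma adjusted p = 0.701). In gemin4 and gemin6 mutants the log2 difference was -0.03 and -0.04. Which transcripts make up the gemin2 difference was not analysed here.

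**Figure D5:**
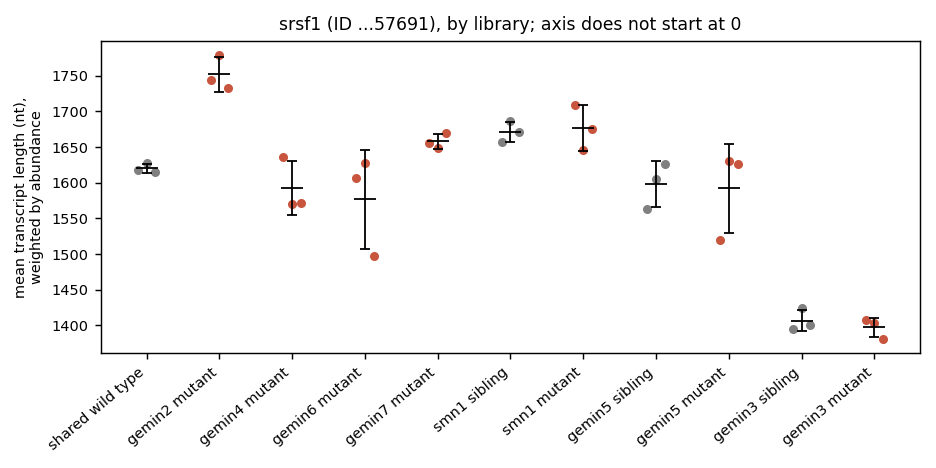
Abundance-weighted mean transcript length of srsf1 (ENSDARG00000057691) by library, mutants in red and controls in grey, with mean and SD in black; the axis does not start at 0. The gemin2 mutants, at 1733.1 to 1779.3 nt, are above the shared wild type at 1615.0 to 1627.2 nt, and the gemin3 family, read at 150 nt, is lowest in both groups.

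Genes that work with SR and hnRNP proteins were examined as 3 lists: 14 genes of SR protein kinases, phosphatase partners and nuclear import, 29 SR-related proteins and coactivators, and 64 other hnRNP-like or alternative splicing regulators. In the 7 comparisons with controls the only calls were 2 of the 64, both in gemin2 mutants, where 5.39% of all genes were called. mbnl1, a muscleblind gene that directs splicing in muscle development, fell from 42.9, 37.4 and 37.8 CPM in the wild type to 27.7, 25.3 and 22.6 CPM (log2 -0.65, SE 0.12, edgeR adjusted p = 0.0211). rbm24 (ENSDARG00000102995), a muscle splicing regulator, rose from 36.3, 34.8 and 39.9 CPM to 56.0, 56.1 and 49.6 CPM (log2 0.54, SE 0.11, edgeR adjusted p = 0.032). The groups overlapped in neither gene. The muscle marker sum was higher in gemin2 mutants, the direction of rbm24 and the opposite of that of mbnl1. The part of muscle in these values was not tested. In the direct comparison of gemin2 with gemin4, gemin6 and gemin7 mutants, 1 of the 14 was called (higher), 3 of the 29 (1 higher and 2 lower) and 9 of the 64 (5 higher and 4 lower), beside 16.1% of all genes. They included the SR protein kinase gene clk2 (0.36, SE 0.09), the coactivator srrm1 (-0.38, SE 0.12), the polypyrimidine tract binding gene ptbp1 (0.36, SE 0.08), and fus (0.56, SE 0.16) and taf15 (-0.42, SE 0.13), related RNA-binding genes with opposite signs. The median over each list was between -0.12 and 0.04 in all 7 comparisons with controls.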

How the data were processed

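RNA-Seq of 33 libraries was analysed. The authors trimmed reads (Trimmomatic 0.36), mapped them with STAR to GRCz10 (danRer10) with Ensembl genes without pseudogenes, and quantified them with RSEM. STAR was version 2.5.4a in the submitters' processing notes, which also name HISAT2 2.2.1.0. The paper's methods name a later STAR version, and which one made the deposited values is not settled here. The deposited values used were expected counts, TPM, transcript and effective lengths and posterior standard deviations per gene. Expected counts were rounded and tested with edgeR 4.0.16 (filterByExpr, TMM, quasi-likelihood) in the 6 libraries of each comparison, and lengths with limma 3.58.1 (R 4.3.3). Printed CPM were TMM-normalized over all 33 libraries. Contrasts between mutants used 1 fit of 11 groups. Alternatives were DESeq2 1.42.0, RLE, no filter, a replicate block, the 33-library fit and leaving out libraries; for counts of genes without overlap and for control levels, leaving out replicate 3 was chosen after seeing the data. Replicate numbers were taken to pair the samples where every correlation of same-numbered deviations was above 0.1: smn1 (0.441 to 0.651), gemin3 (0.14 to 0.371) and gemin5 (0.334 to 0.638). Between replicates 1 and 2 the crossed correlation reached 0.16 in gemin3 and 0.278 in gemin5, so there the pairing of these replicates is uncertain. Named were called genes, the 5 highest and 3 lowest by TPM, and the largest rise and fall per comparison; others named were chosen after their values were seen. Members and lists were chosen with earlier results of these data known. The scripts' statistics were tested on simulated counts. No libraries of a group agreed within sampling noise (lowest chi-square per degree of freedom 9.75). Small RNA libraries were not used here.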

Additional observations from a re-analysis of the deposited data

Results flagged for a closer look

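The difference between gemin2 mutants and the mean of the gemin4, gemin6 and gemin7 mutants passed edgeR's test (adjusted p below 0.05, log2 scale) for 7 SR and hnRNP genes, which flags them for a closer look. The value was -0.55 for srsf2b, -0.46 for hnrnph3, -0.41 for hnrnpa1a, -0.38 for srsf9 and -0.26 for hnrnpa1l2, and 0.48 and 0.23 for srsf6 (ENSDARG00000016783) and srsf6 (ENSDARG00000013729). In the same contrast 16.1% of all genes passed. The gemin2 mutants have no sibling library, so differences between fish families and the effect of the mutation cannot be told apart.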

How the results depend on the processing

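For 27 results on named genes, 375 values were computed under other settings: 340 kept their direction and side of the threshold, 0 turned direction, 27 lost the call and 8 gained it. Many of these results were not called at first, so they could not lose a call. In gemin2 mutants against the wild type, srsf2b kept its call in 6 settings and lost it in 5. There hnrnpa1a kept it in 4 and lost it in 7, and the length of srsf1 (ENSDARG00000057691) in 2 and 7. In the contrast with the other mutants, srsf2b, hnrnpa1a and srsf6 (ENSDARG00000016783) kept it in all 15. Of 192 counts of calls, 173 stayed within 1.5 times. In gemin5 mutants, 1 gene was called by DESeq2 and 4 with the replicate block, a pairing that only replicate 3 showed clearly. In gemin2 mutants the count was 4 by DESeq2, a share given above. It was 5 in the 33-library fit and 0 to 2 with 1 library left out, and in the contrast with the other mutants 3 to 7. The share of all genes in these refits is not given here, so the counts are not read as results about the members. For transcript length in gemin2 mutants the count was 0 with effective length and 0 to 1 with 1 library left out. In gemin7 mutants effective length gave 9, or 22.0% against 51.7% of all genes. The cause was not tested. Replicate numbers did not pair the gemin2 libraries with the wild type (correlations -0.155 to 0.0968). With the replicate block, 1 gene was called by count and 0 by length, again with no share of all genes given. The block gave no further change in the count of calls. With 3 libraries a group and a median SE near 0.1, small differences are not detectable.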
